A study of Mus musculus with 8 samples.

Results

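Described here, in RNA of mouse blastocysts of embryonic day 4.5, are 9 germline genes whose promoters are methylated in somatic tissues: Tex19.1, Dazl, Ddx4, Mael, Asz1, Sycp3, Hormad1, Taf7l and Tex101. They were chosen by symbol from a GENCODE annotation of GRCm38, and all 9 were found once among the 55471 gene identifiers in the files. The 8 libraries are 3 of embryos homozygous for the G77S substitution in Isca2 (Isca2 G77S/G77S, called G77S), 2 of Isca2 -/- embryos (KO) and 3 of wild-type embryos (WT). Isca2 encodes a mitochondrial carrier protein for iron-sulfur clusters, and the series title concerns its interaction with TET enzymes, which oxidise methylated cytosine. Per the labels' protocols, embryos came from superovulated Isca2+/- females crossed to Isca2+/- males and were kept in culture medium, and a single-cell kit was used to amplify their cDNA. How many embryos went into a library, of which sex or litter, and from which cross G77S embryos came, is not stated in the labels. Separate litters for the libraries of a group are not stated either, so p-values cover only the spread among these libraries, possibly a technical one.

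Germline genes of this kind are used in germ cells for meiosis and for defence against transposons. In somatic tissues most of them are held silent, many by methylation of a CpG-rich promoter, and some also by a variant Polycomb complex (PRC1.6) that contains E2F6 and the E-box factors MGA and MAX. DNA methylation is low in the blastocyst, and it is re-established around implantation. The deposited tables hold RNA only: no methylation value was used here.

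Total expected counts ran from 10323965 to 13490295 in G77S, from 18467418 to 21146927 in KO and from 10790670 to 23842619 in WT. Isca2 itself stood at 89.1, 105 and 133 CPM (counts per unit of library size, after TMM scaling) in G77S, at 4.84 and 6.20 CPM in KO, and at 86.9, 173 and 154 CPM in WT, so both KO libraries were below all 6 others. From gene lengths and effective lengths, mean fragments were 182.4 to 186.1 bases long in G77S, against 244.4 to 292.1 bases in KO and 243.7 to 276.5 bases in WT. Fragment length and the G77S genotype therefore cannot be told apart in any difference given below. RNA of 4 Y-linked genes summed to 0.0700 CPM in G77S replicate 1 and 0.335 CPM in WT replicate 1, against 215 to 418 CPM in the other 6 libraries.

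The promoters of the members show what they share in sequence. A window of 300 bases (250 before and 50 after the RefSeq start, GRCm38.p6) was found for all 9 members. The members held 15 to 38 CpG sites in it, against a median of 7 over 32841 RefSeq windows, and all 9 were above that median. Ddx4 held the most (38, above 95% of windows) and Sycp3 the fewest (15, above 65.4%). Shown are Tex19.1, the member called below, its paralog Tex19.2, Sycp3, the most abundant member, Hormad1, the next most abundant, Ddx4, the richest in CpG, and Taf7l, which had no counts. Capitals mark each CpG, the site that DNA methylation acts on, and each line runs 5′ to 3′ on the gene's strand.
Tex19.1: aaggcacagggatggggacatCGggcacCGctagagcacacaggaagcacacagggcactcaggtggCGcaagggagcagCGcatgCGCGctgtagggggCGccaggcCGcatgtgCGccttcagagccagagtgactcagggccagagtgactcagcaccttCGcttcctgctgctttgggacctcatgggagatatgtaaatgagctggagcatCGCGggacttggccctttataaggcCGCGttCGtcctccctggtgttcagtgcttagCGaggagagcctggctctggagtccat
Tex19.2: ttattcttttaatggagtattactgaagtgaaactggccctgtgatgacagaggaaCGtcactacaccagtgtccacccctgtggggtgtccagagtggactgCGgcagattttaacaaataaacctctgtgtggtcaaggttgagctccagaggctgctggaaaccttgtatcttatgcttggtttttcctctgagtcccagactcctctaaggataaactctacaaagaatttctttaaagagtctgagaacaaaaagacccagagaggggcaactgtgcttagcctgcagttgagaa
Sycp3: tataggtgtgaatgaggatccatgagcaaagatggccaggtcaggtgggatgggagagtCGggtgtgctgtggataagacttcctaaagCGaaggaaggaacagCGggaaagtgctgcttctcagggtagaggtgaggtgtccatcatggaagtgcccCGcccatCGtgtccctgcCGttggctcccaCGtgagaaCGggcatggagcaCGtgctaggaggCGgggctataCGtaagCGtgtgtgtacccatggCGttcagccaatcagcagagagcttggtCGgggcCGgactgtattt
Hormad1: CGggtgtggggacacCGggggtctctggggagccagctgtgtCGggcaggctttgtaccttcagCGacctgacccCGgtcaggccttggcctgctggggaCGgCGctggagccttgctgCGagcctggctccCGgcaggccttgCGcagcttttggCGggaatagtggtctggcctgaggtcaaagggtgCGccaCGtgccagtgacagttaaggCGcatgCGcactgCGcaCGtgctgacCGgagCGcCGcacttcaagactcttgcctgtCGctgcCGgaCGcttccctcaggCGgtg
Ddx4: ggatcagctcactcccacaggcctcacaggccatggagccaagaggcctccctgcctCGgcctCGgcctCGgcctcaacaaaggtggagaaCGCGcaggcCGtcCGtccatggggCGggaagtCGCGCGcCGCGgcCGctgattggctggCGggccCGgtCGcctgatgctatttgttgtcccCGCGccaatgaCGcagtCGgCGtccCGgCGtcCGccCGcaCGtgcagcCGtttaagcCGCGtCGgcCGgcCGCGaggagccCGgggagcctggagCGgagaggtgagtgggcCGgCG
Taf7l: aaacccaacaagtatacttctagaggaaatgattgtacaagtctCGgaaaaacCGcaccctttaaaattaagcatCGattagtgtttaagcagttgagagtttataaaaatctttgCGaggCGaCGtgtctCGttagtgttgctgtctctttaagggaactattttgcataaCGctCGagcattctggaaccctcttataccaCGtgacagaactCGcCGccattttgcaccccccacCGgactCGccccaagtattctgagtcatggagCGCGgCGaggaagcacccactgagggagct
These windows are chr11:121145893-121146192 (plus strand) for Tex19.1, chr11:121118628-121118927 (minus) for Tex19.2, chr10:88459337-88459636 (plus) for Sycp3, chr3:95559427-95559726 (plus) for Hormad1, chr13:112652261-112652560 (minus) for Ddx4 and chrX:134476441-134476740 (minus) for Taf7l. Tex19.2, no member, has 2 CpG sites in its window, against 16 in that of Tex19.1.

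Short motifs were counted on both strands of the same windows. The E-box CACGTG, a palindrome, stood in 5 of the 9 member windows (Sycp3, Hormad1, Ddx4, Mael and Taf7l) and in 7.15% of all windows. The E2F-type motif GCGGGA stood in 5 of 9 (Tex19.1, Sycp3, Hormad1, Ddx4 and Mael) and in 20% of all windows. Both stood in 4 member windows and in 1.99% of all windows, and Dazl, Asz1 and Tex101 held neither. CACGTG and GCGGGA can share at most 1 end base, and a match describes the letters only. Each motif contains a CpG, and the member windows are richer in CpG than most. Windows of like CpG content were not compared, so the motif shares cannot be told apart from CpG content. The RefSeq start of Tex101 lies 4625 bases from the GENCODE start, so its window may not be the promoter used by every transcript.

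**Figure D1:**
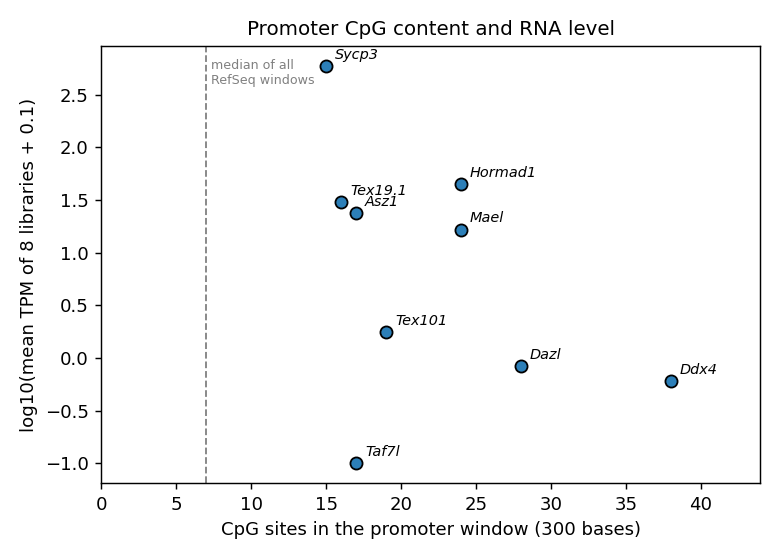
CpG sites in the promoter window (horizontal axis, count in 300 bases) against the mean RNA level over the 8 libraries (vertical axis, log10 of TPM + 0.1), with 1 point for each of the 9 genes and the median of all RefSeq windows (7) as a dashed line. All 9 points lie right of the line, with Ddx4 at 38 CpG sites and Sycp3, the highest in RNA, at 15.

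Not all of the 9 genes were silent in these embryos. Of the 9, 5 had counts in every library with a mean of at least 16.5 TPM (a level scaled for transcript length within the library), 3 were low and missed in 1 to 4 libraries, and Taf7l had no count in any. By mean TPM over the 8 libraries the order was Sycp3 (596), Hormad1 (44.8), Tex19.1 (30.1), Asz1 (23.7), Mael (16.5), Tex101 (1.65), Dazl (0.735), Ddx4 (0.501) and Taf7l (0). Sycp3 ranked first in all 8 libraries. The ranges of Hormad1, Tex19.1, Asz1 and Mael over libraries overlapped, and so did those of Tex101, Dazl and Ddx4. Tex101 also overlapped Mael: it reached 5.70 TPM in KO replicate 1, against 3.35 TPM for Mael in G77S replicate 3. Among the 9, Taf7l alone had no RNA detected in any library, and Sycp3, Hormad1, Tex19.1, Asz1 and Mael had RNA in all 8.

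**Figure D2:**
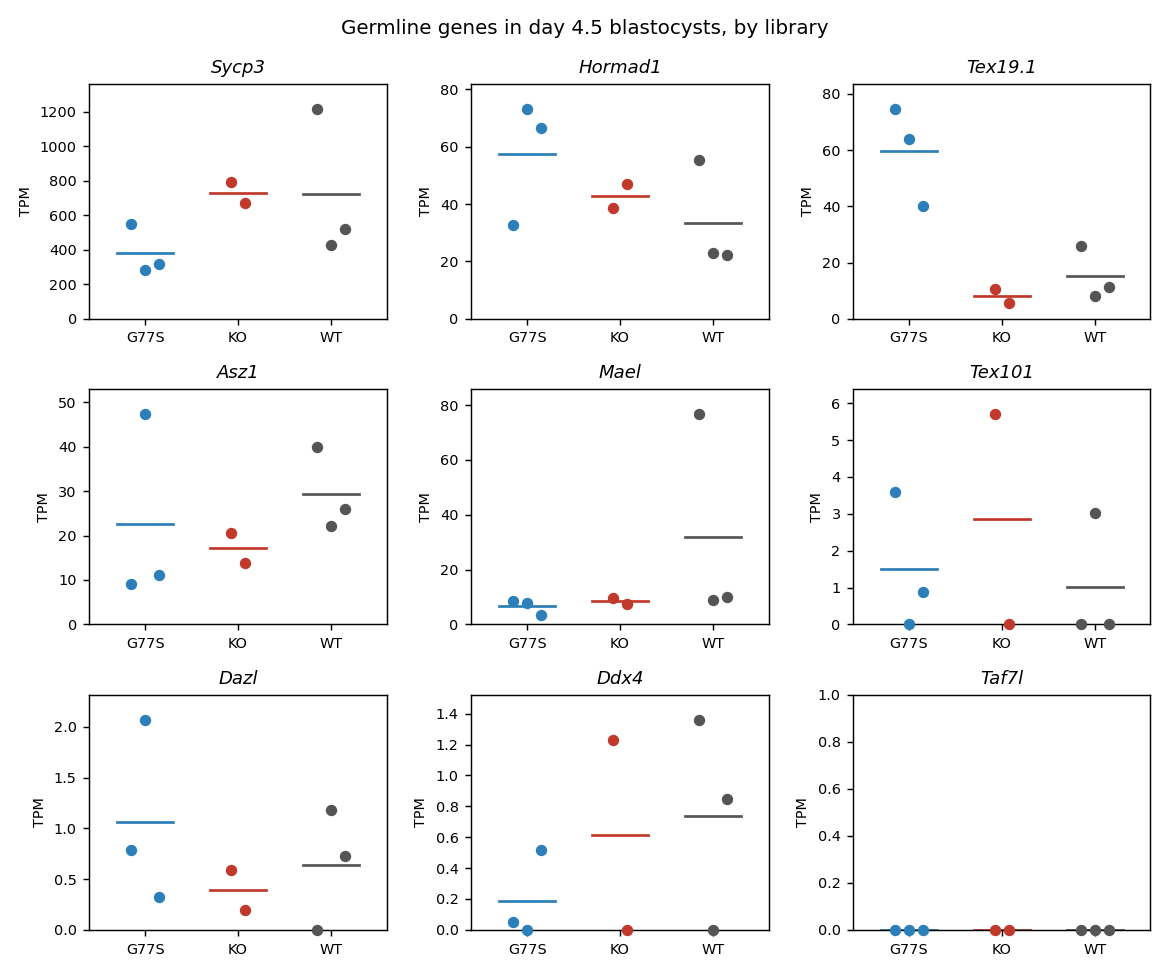
RNA level (TPM, linear axes from 0, each panel with its own range) of the 9 germline genes in the G77S (n = 3), KO (n = 2) and WT (n = 3) libraries; points are libraries and bars are group means. Tex19.1 lies at 40.2 to 74.7 TPM in G77S, above all KO and WT libraries, and WT replicate 1 stands high for Mael (76.6 TPM) and Sycp3 (1216 TPM).

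Among the 8 members that passed the low-count filter, edgeR's quasi-likelihood test called Tex19.1 alone, and in the G77S comparisons alone. For KO versus WT 0 of 8 members were called at an adjusted p under 0.05, where 0.122% of the 13953 genes tested were (0.0788% higher and 0.043% lower). At an unadjusted p under 0.05 the count was also 0 of 8, where 13% of all genes tested passed, and DESeq2 and limma called 0. For G77S versus WT 1 of 8 was called, and it was higher, where 3.39% of all genes tested were called (1.3% higher and 2.09% lower). For G77S versus KO 1 of 8 was called, also higher, where 4.19% were (1.76% higher and 2.43% lower). Unadjusted edgeR p-values under 0.05 numbered 3 of 8 for G77S versus WT and 2 of 8 for G77S versus KO. Over all genes tested 20% and 20.7% passed. DESeq2 called 1 higher and 2 lower for G77S versus WT, and 1 higher and 1 lower for G77S versus KO. In each of these comparisons limma called 1 higher and 0 lower. Over the 8 tested members the median log2 fold change was -0.09 for KO versus WT, -0.40 for G77S versus WT and -0.53 for G77S versus KO, against -0.06, 0.03 and 0.10 over all genes tested. The KO and G77S comparisons with WT share the WT libraries, and the G77S libraries serve in both comparisons that name them.

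**Figure D3:**
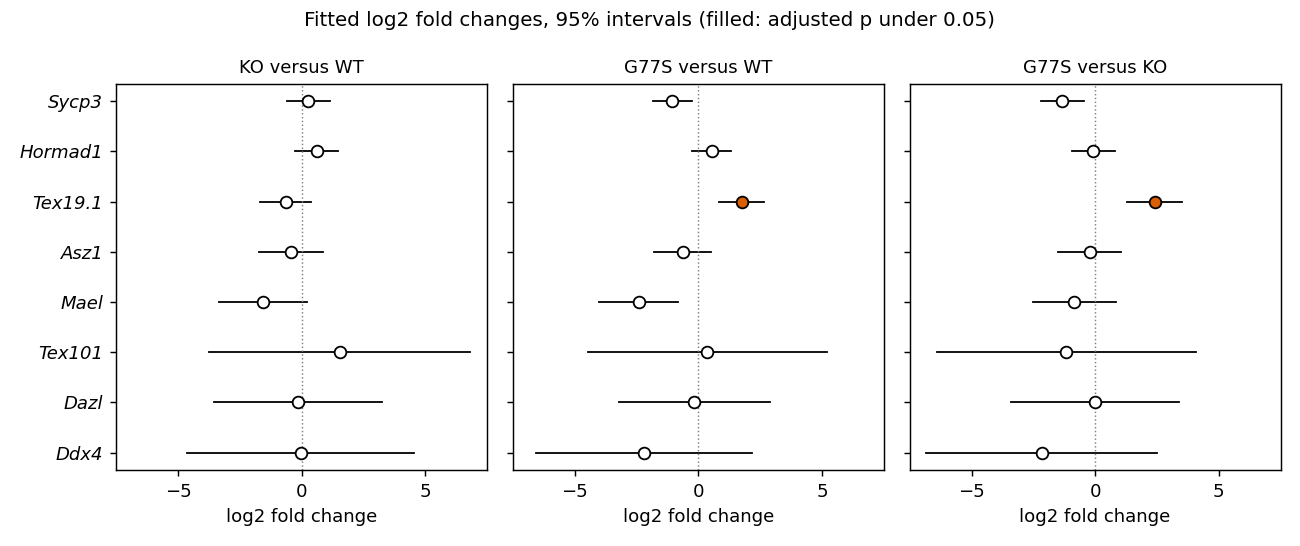
Log2 fold changes of the 8 tested members (horizontal axis, on TMM-scaled counts) with 95% intervals for KO versus WT, G77S versus WT and G77S versus KO; filled points had an edgeR adjusted p under 0.05. Tex19.1 is filled at 1.75 and 2.41 in the G77S comparisons, and the intervals of Tex101, Dazl and Ddx4 span several log2 units.

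Tex19.1 encodes a protein of germ cells, pluripotent cells and placenta that takes part in the control of retrotransposons. It lies on chromosome 11 from 121146143 to 121148319 (plus strand, GRCm38), is protein coding (ENSMUSG00000039329) and overlaps no other gene. Its level was 74.7, 64.1 and 40.2 TPM in G77S, 10.6 and 5.62 TPM in KO, and 25.9, 8.0 and 11.3 TPM in WT. Every G77S library was above every KO and WT library, while the KO and WT ranges overlapped. In scaled counts Tex19.1 stood at 94.2 ± 31.8 CPM in G77S (SD, n = 3), 17.8 ± 6.61 CPM in KO (SD, n = 2) and 27.9 ± 13.9 CPM in WT (SD, n = 3). It rose in G77S relative to WT, with a log2 fold change of 1.75 (SE 0.42, edgeR adjusted p = 0.0484), and relative to KO, with 2.41 (SE 0.50, edgeR adjusted p = 0.026). For KO versus WT the log2 fold change was -0.65, with a 95% interval of -1.68 to 0.37 (edgeR adjusted p = 0.602). Its deposited estimate was a whole number in all 8 libraries.

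The Tex19.1 calls lie close to the threshold. The edgeR call against WT was lost with RLE scaling (adjusted p = 0.051) and without any 1 of 5 libraries (WT replicates 2 and 3 and G77S replicates 1, 2 and 3; adjusted p = 0.0698 to 0.178), and held without WT replicate 1 (0.0174). Against KO it was lost without any 1 of 4 libraries (KO replicates 1 and 2 and G77S replicates 1 and 2; adjusted p = 0.0781 to 0.176) and held without G77S replicate 3 (0.043). The log2 fold change itself ran from 1.48 to 2.23 against WT and from 2.07 to 2.84 against KO over these omissions. It was 1.95 against WT among the 6 libraries with Y-linked RNA (adjusted p = 0.0492). The deposited length of Tex19.1, weighted over its transcripts, was 1732 to 1735 bases in G77S and 1745 bases in every KO and WT library, a difference that cannot be told apart from the shorter G77S fragments.

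Tex19.2, the paralog of Tex19.1 on the same chromosome, was described for comparison and belongs to a companion list. It had 160, 63 and 20 counts in G77S, 0 and 0 counts in KO, and 5, 5 and 0 counts in WT. Every G77S library was above every other library. It was at least 71.6-fold higher in G77S than in KO, taking 3 counts over the KO group as the floor (edgeR adjusted p = 0.049). G77S replicate 1 held 160 of the 243 G77S counts, and without it the bound was 37.8-fold. The bound was 37.7-fold without KO replicate 1 and 33.9-fold without KO replicate 2, and edgeR no longer called Tex19.2 without any 1 of the 5 libraries (adjusted p = 0.0813 to 0.189). Against WT the log2 fold change was 4.52 (SE 1.38, edgeR adjusted p = 0.103).

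Markers of the blastocyst lineages also differed between genotypes, and not in 1 direction. Nanog, a pluripotency factor and the most abundant of 5 epiblast genes, averaged 119 ± 54.5 CPM in G77S (SD, n = 3), 40.4 ± 18.4 CPM in KO (SD, n = 2) and 261 ± 38.1 CPM in WT (SD, n = 3). Its log2 fold change was -1.13 for G77S versus WT (edgeR adjusted p = 0.107) and 1.56 for G77S versus KO (edgeR adjusted p = 0.065). Pou5f1, another pluripotency factor, stood at 52.9, 36.0 and 26.7 CPM in G77S, 2.89 and 3.87 CPM in KO, and 7.58, 7.45 and 4.49 CPM in WT, and it rose in G77S relative to both (edgeR adjusted p = 0.0104 against WT and 0.00614 against KO). The Pou5f1 call against WT was lost without G77S replicate 1 (adjusted p = 0.0634) or G77S replicate 2 (0.0539). Of the Pou5f1 exon bases 317 of 2248 are shared with Gm19553 on the opposite strand. Over the whole list of 5 epiblast genes the summed level was 127 to 225 CPM in G77S, 88.0 to 91.6 CPM in KO and 230 to 310 CPM in WT, so it was lower in every G77S library than in every WT library. Nanog gave most of that sum in each G77S and WT library. For G77S versus WT, 4 of the 5 genes had a log2 fold change above 0 and Nanog alone was below 0 (list median 2.57). Of the 5, edgeR called 2 (Utf1 and Pou5f1) higher and 0 lower in G77S than in WT, where DESeq2 called 2 higher and 1 lower and limma 2 higher and 0 lower. Utf1 was also called higher in KO than in WT, with a log2 fold change of 3.33 (edgeR adjusted p = 0.0295), beside 2.59 for G77S versus WT. Nanog had -2.69 for KO versus WT (edgeR adjusted p = 0.0529). In that comparison edgeR called 1 higher and 0 lower, DESeq2 2 higher and 1 lower, and limma 1 higher and 1 lower. For G77S versus KO the log2 fold change was -0.73 for Utf1 (edgeR adjusted p = 0.384) and -2.31 for Klf4 (edgeR adjusted p = 0.297). Nanog, Klf4, Sox2, Sox17, Gata4, Cdx2 and Gata3 were named after their values were seen. The summed level of 5 trophectoderm genes was 3860 to 4680 CPM in G77S, 7780 to 12800 CPM in KO and 7200 to 11100 CPM in WT, with 0 of 5 called higher and 2 (Elf5 and Krt18) lower by edgeR in G77S than in WT. The keratin genes Krt18 and Krt8 gave most of that sum in every library. Of the others, Cdx2 and Gata3 had uncalled log2 fold changes of 0.43 and -0.04 for G77S versus WT. For G77S versus KO these were 1.22 and 0.71, also uncalled, while Elf5, Krt8 and Krt18 were below 0. Of these Krt18 alone was called by edgeR, with a log2 fold change of -1.46 (edgeR adjusted p = 0.012). In that comparison DESeq2 called 0 higher and 3 lower and limma 0. The summed level of 4 primitive endoderm genes was 27.7 to 33.5 CPM in G77S, 30.8 to 33.5 CPM in KO and 17.8 to 23.6 CPM in WT. Gata6 gave most of that sum in every library. Pdgfra averaged 2.52 CPM in G77S, 2.17 CPM in KO and 0.0186 CPM in WT. Its log2 fold change was 6.5 for G77S versus WT (edgeR adjusted p = 0.0514) and 6.28 for KO versus WT (edgeR adjusted p = 0.156). Of 3 tested genes edgeR called 0 in each comparison, and DESeq2 called 1 higher in each comparison with WT. No gene of these 3 lists was at 0 in all 8 libraries. Sox2, Sox17 and Gata4 were at 0 in every WT library, and Gata4 also in every G77S library. In whole blastocysts fewer cells of a type and less RNA per cell cannot be told apart, and the part of lineage makeup in the Tex19.1 result was not tested.

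Dazl and Ddx4, the RNA-binding members, were near the floor. Dazl, on chromosome 17 from 50279395 to 50293636 (minus strand), encodes a germ cell protein that binds mRNA and regulates its translation. It had 21, 31 and 9 counts in G77S (0.79, 2.07 and 0.32 TPM), 39 and 12 counts in KO (0.59 and 0.20 TPM), and 0, 35 and 31 counts in WT (0, 1.18 and 0.73 TPM). The groups overlapped, and its log2 fold changes had intervals as wide as -3.55 to 3.26 for KO versus WT. The 95% interval for G77S versus WT was -3.20 to 2.89, so a change of several fold in either direction lay within the interval. Its weighted transcript length ran from 1265 to 2976 bases over the libraries, so TPM and counts order the libraries differently.

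Ddx4, on chromosome 13 from 112598333 to 112652475 (minus strand), encodes the germ cell RNA helicase also known as VASA. It had 2, 0 and 17 counts in G77S, 81 and 0 counts in KO, and 76, 0 and 66 counts in WT. In TPM these were 0.05, 0 and 0.52 in G77S, 1.23 and 0 in KO, and 1.36, 0 and 0.85 in WT. Each genotype thus had a library without a count, where 3 counts would be 0.039 to 0.081 TPM. The edgeR adjusted p was 1 for KO versus WT and 0.598 for G77S versus WT.

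Mael and Asz1 act in the piRNA pathway, which silences transposons in germ cells. Mael, on chromosome 1 from 166201201 to 166238747 (minus strand), encodes the nuage protein Maelstrom. It stood at 8.59, 7.69 and 3.35 TPM in G77S, 9.68 and 7.47 TPM in KO, and 76.6, 8.78 and 10.1 TPM in WT. WT replicate 1 lay far above the 7 other libraries, which ran from 3.35 to 10.1 TPM. Its log2 fold change for G77S versus WT was -2.41 (SE 0.73, edgeR adjusted p = 0.0935), and -0.90 without WT replicate 1 (adjusted p = 0.298). DESeq2 called it lower in G77S than in WT (adjusted p = 0.0061), as edgeR did without a low-count filter. For KO versus WT it was -1.57 (SE 0.81, edgeR adjusted p = 0.446), and -0.05 without WT replicate 1. Each G77S library was below each WT and each KO library in CPM, but in TPM G77S replicates 1 and 2 were above KO replicate 2.

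Asz1, on chromosome 6 from 18050964 to 18109061 (minus strand), encodes a protein that anchors germ cell granules to mitochondria. It stood at 9.0, 47.3 and 11.2 TPM in G77S, 20.5 and 13.7 TPM in KO, and 39.8, 22.1 and 26.1 TPM in WT. G77S replicate 2 was the highest library and the other G77S libraries were the lowest, so the groups overlapped. The log2 fold change was -0.64 for G77S versus WT (95% interval -1.79 to 0.51, edgeR adjusted p = 0.55) and -0.43 for KO versus WT (-1.72 to 0.87, edgeR adjusted p = 0.834).

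Sycp3 and Hormad1 belong to the meiotic chromosome axis. Sycp3, on chromosome 10 from 88459569 to 88473236 (plus strand), encodes a protein of the lateral element of the synaptonemal complex. It was the most abundant member, at 548, 281 and 320 TPM in G77S, 791 and 671 TPM in KO, and 1216, 427 and 518 TPM in WT. It was thus above 95.9 to 99.0% of the genes with a TPM above 0 in a library, and gave 59.1 to 80.9% of the members' summed TPM in G77S, 90.1% in each KO library and 85.9 to 87.9% in WT. In scaled counts it stood at 377 ± 170 CPM in G77S (SD, n = 3), 946 ± 36.8 CPM in KO (SD, n = 2) and 786 ± 360 CPM in WT (SD, n = 3). Both KO libraries were above every G77S library, and G77S and WT overlapped. The log2 fold change was -1.33 for G77S versus KO (SE 0.39, edgeR adjusted p = 0.0857), -1.06 for G77S versus WT (SE 0.36, edgeR adjusted p = 0.128) and 0.27 for KO versus WT (95% interval -0.60 to 1.13, edgeR adjusted p = 0.849). Without WT replicate 1 the G77S versus WT value was -0.62 (adjusted p = 0.281). DESeq2 called Sycp3 lower in G77S relative to both WT (adjusted p = 0.0428) and KO (adjusted p = 0.0156).

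The Sycp3 counts carry an uncertainty of annotation. Sycp3 lies wholly within Chpt1, a choline phosphotransferase gene on the opposite strand, and 660 of its 1264 exon bases (52.2%) are also exon of Chpt1. No strand setting was stated for the counting. The Sycp3 estimate was not a whole number in any of the 8 libraries, as estimates are where reads map to more than 1 gene. In each library the Sycp3 and Chpt1 estimates added up to a whole number. In WT replicate 1, for example, they were 21452.09 and 4023.91. Reads were thus shared out between these genes on opposite strands, so the counts did not fully separate the strands there. Chpt1 itself stood at 259, 277 and 236 CPM in G77S, 242 and 330 CPM in KO, and 224, 229 and 163 CPM in WT. Its log2 fold change was 0.32 for G77S versus WT (edgeR adjusted p = 0.444) and -0.15 for G77S versus KO (edgeR adjusted p = 0.772). The share of Sycp3 reads that belong to Chpt1 cannot be told from these tables.

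By profile, the 5 genes most like Sycp3 among 11302 other tested protein-coding genes with a conventional symbol were Fuca1, Luc7l2, Myo6, Acat1 and Tgif1. Their root mean square differences from Sycp3 in centred log2(CPM + 1) over the 8 libraries were 0.15, 0.199, 0.259, 0.268 and 0.277, where Sycp3 itself spanned 2.23. With 8 libraries and this many genes, close profiles are a description only.

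Hormad1, on chromosome 3 from 95559677 to 95587671 (plus strand), encodes a HORMA-domain protein of unsynapsed meiotic chromosome axes. It stood at 32.8, 73.2 and 66.4 TPM in G77S, 38.5 and 46.9 TPM in KO, and 55.2, 22.9 and 22.4 TPM in WT. In TPM, WT replicate 1 lay above both KO libraries and within the G77S range, and the 2 other WT libraries were below every mutant library. In CPM, WT replicate 1 (71.2) lay between KO replicate 1 (62.8) and KO replicate 2 (84.5). The log2 fold change was 0.54 for G77S versus WT (95% interval -0.25 to 1.33, edgeR adjusted p = 0.443), 0.61 for KO versus WT (-0.26 to 1.48, edgeR adjusted p = 0.553) and -0.07 for G77S versus KO (-0.94 to 0.80, edgeR adjusted p = 0.944).

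Taf7l had no count in any library, and Tex101 had counts in 4 of the 8. Taf7l, on chromosome X from 134460118 to 134476490 (minus strand), encodes a germ cell paralog of a general transcription factor subunit. It had 0 counts in all 8 libraries and was not tested; 3 counts would correspond to 0.099 to 0.243 TPM. Tex101, on chromosome 7 from 24668007 to 24676675 (minus strand), encodes a germ cell surface protein needed for sperm function. It had 49, 0 and 9 counts in G77S (3.59, 0 and 0.89 TPM), 108 and 0 counts in KO (5.70 and 0 TPM), and 0, 34 and 0 counts in WT (0, 3.01 and 0 TPM). One library in each genotype held most of its counts, and the libraries without a count would show 3 counts as 0.111 to 0.225 TPM. Its log2 fold change for KO versus WT was 1.54 with a 95% interval of -3.75 to 6.82 (edgeR adjusted p = 0.862).

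The share of members whose groups did not overlap was not above that of all genes tested, and 8 members are too few to compare the shares. In TPM Mael overlapped between G77S and KO. In CPM, Tex19.1 and Mael separated G77S from WT (2 of 8, where 29% of all genes tested did), and Tex19.1, Mael and Sycp3 separated G77S from KO (3 of 8, where 44.9% did). For KO versus WT 0 of 8 did, where 25.6% did over all genes tested. WT replicate 1 was the highest WT library for 6 of the 9 members (Sycp3, Hormad1, Tex19.1, Asz1, Mael and Ddx4) and had 0 counts for the other 3.

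Other germline genes were read from 3 companion lists. Over the 13953 genes tested, edgeR called 473 for G77S versus WT, 585 for G77S versus KO and 17 for KO versus WT. DESeq2 called 1538, 1700 and 650 of them in that order, and limma 1466, 1849 and 95. Of 20 piRNA pathway genes 13 were tested, and of these edgeR called 1 higher and 0 lower in G77S than in WT, likewise 1 and 0 in G77S than in KO, and 0 in KO than in WT. DESeq2 called 1 higher and 0 lower for G77S versus WT, and 1 higher and 2 lower for G77S versus KO, where limma called 1 higher and 0 lower in each. The called gene was Gtsf1, a zinc finger protein needed for transposon silencing in the male germline, at 18.1, 25.8 and 13.6 CPM in G77S, 1.77 and 2.12 CPM in KO, and 5.02, 5.06 and 1.90 CPM in WT. Its log2 fold change was 2.27 against WT (SE 0.52, edgeR adjusted p = 0.0445) and 3.30 against KO (SE 0.65, edgeR adjusted p = 0.0208). All 3 G77S libraries of Gtsf1 were above all others. The edgeR call was lost against WT without any 1 of 5 libraries (WT replicates 2 and 3 and each G77S replicate; adjusted p = 0.0832 to 0.203), and against KO without any 1 of 4 (both KO replicates and G77S replicates 1 and 2; adjusted p = 0.0655 to 0.114). The list's median log2 fold change was 0.14 for G77S versus WT, 0.07 for G77S versus KO and 0.31 for KO versus WT. Unadjusted edgeR p-values under 0.05 numbered 4, 3 and 1 of 13 in that order, beside 20%, 20.7% and 13% of all genes tested. For KO versus WT DESeq2 and limma called 0. The list's most abundant genes, Fkbp6 and Rnf17, had 170 ± 7.15 and 135 ± 26.5 CPM in KO (SD, n = 2) and 140 ± 31.0 and 90.5 ± 20.3 CPM in WT (SD, n = 3).

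Of 25 genes of meiotic chromosomes 16 were tested, and edgeR called 0 higher and 1 lower in each G77S comparison and 0 for KO versus WT. For G77S versus WT DESeq2 called 2 higher and 2 lower and limma 2 higher and 1 lower. For G77S versus KO DESeq2 called 1 higher and 2 lower and limma 1 higher and 1 lower. The gene edgeR called was Syce2, encoding a central element protein of the synaptonemal complex. It stood at 90.5, 50.3 and 53.4 CPM in G77S, 309 and 491 CPM in KO, and 303, 240 and 136 CPM in WT. It fell in G77S relative to WT, with a log2 fold change of -1.80 (SE 0.35, edgeR adjusted p = 0.0216), and relative to KO, with -2.63 (SE 0.38, edgeR adjusted p = 0.00614). Its KO versus WT value was 0.82 (edgeR adjusted p = 0.382). The edgeR call held against KO without each library in turn, and was lost against WT without WT replicate 2 (adjusted p = 0.0674), G77S replicate 2 (0.119) or G77S replicate 3 (0.094). Syce2 overlaps Gcdh on the opposite strand but shares 0 exon bases with it. The list's median was 0.51 for G77S versus WT, -0.57 for G77S versus KO and 0.61 for KO versus WT. Unadjusted edgeR p-values under 0.05 numbered 6 of 16, 5 of 16 and 6 of 16 in that order. Over all genes tested 20%, 20.7% and 13% passed. For KO versus WT DESeq2 called 1 higher and limma 0.

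Of 20 other germline genes linked to methylation 19 were found by symbol and 12 were tested. Tex19.2 was called higher by edgeR in G77S versus KO, where 3 of 12 had an unadjusted p under 0.05 (20.7% of all genes tested). In that comparison DESeq2 called 1 higher and 2 lower and limma 1 higher and 0 lower. For G77S versus WT edgeR called 0, with 4 of 12 at an unadjusted p under 0.05 (20% of all genes tested), while DESeq2 and limma each called 2 higher. For KO versus WT edgeR called 0, with 2 of 12 at an unadjusted p under 0.05 (13% of all genes tested), and DESeq2 and limma called 0. The most abundant was Zfp42 (REX1, a marker of pluripotent cells and germ cells), at 237 ± 25.0 CPM in G77S (SD, n = 3), 224 ± 35.1 CPM in KO (SD, n = 2) and 124 ± 38.5 CPM in WT (SD, n = 3). Its edgeR adjusted p was 0.0766 for G77S versus WT and 0.238 for KO versus WT.

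**Figure D4:**
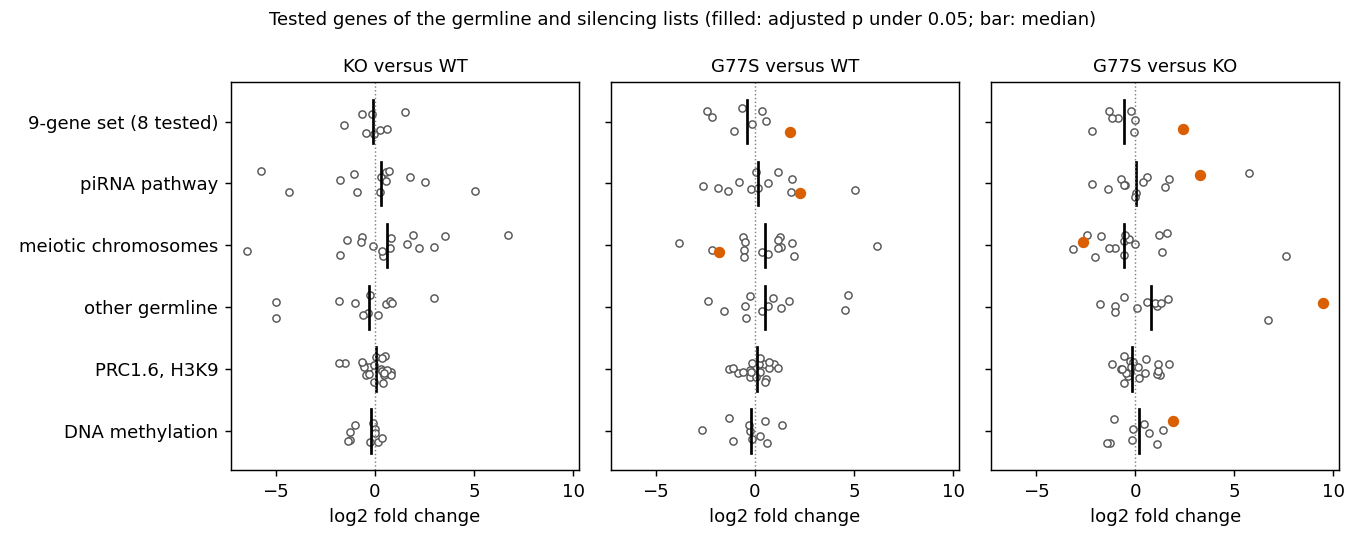
Log2 fold changes (horizontal axis, on TMM-scaled counts) of the tested genes of the 9-gene set, 3 lists of other germline genes and 2 lists of silencing genes, for KO versus WT, G77S versus WT and G77S versus KO; points are genes, filled where the edgeR adjusted p was under 0.05, and bars are list medians. The filled points are Tex19.1, Gtsf1, Syce2, Tex19.2 and Dppa3, and genes with no count in a group have fitted values that depend on the model's prior.

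Genes that silence the germline programme were also read. Of 22 genes of the PRC1.6 complex and of H3K9 methylation 21 were tested, and 0 were called in any comparison with edgeR. Unadjusted p-values under 0.05 numbered 7 of 21 for G77S versus WT, 6 for G77S versus KO and 3 for KO versus WT, beside 20%, 20.7% and 13% of all genes tested. In these comparisons DESeq2 called 1, 3 and 1 and limma 1, 3 and 0. The list's median log2 fold change was 0.12, -0.17 and 0.08 in that order. Cbx3, a heterochromatin protein gene, stood at 317 ± 31.2 CPM in G77S (SD, n = 3), 276 ± 86.5 CPM in KO (SD, n = 2) and 193 ± 70.9 CPM in WT (SD, n = 3). Of 10 genes of DNA methylation and demethylation, all tested, edgeR called 1 higher in G77S than in KO and 0 in the comparisons with WT. For G77S versus KO DESeq2 called 1 higher and limma 2 higher, and neither called any lower. That gene was Dppa3, whose protein shields maternal DNA from oxidation by TET3 in the zygote, at 6330 ± 866 CPM in G77S (SD, n = 3), 1670 ± 666 CPM in KO (SD, n = 2) and 4220 ± 1390 CPM in WT (SD, n = 3), a log2 fold change of 1.92 for G77S versus KO (edgeR adjusted p = 0.0126). That call was lost without KO replicate 1 (adjusted p = 0.0825) and held without each other library of the comparison. Unadjusted p-values under 0.05 numbered 1 of 10 for G77S versus WT, 2 for G77S versus KO and 3 for KO versus WT, beside the shares of all genes given above. DESeq2 and limma called 0 for G77S versus WT, and each called 1 lower for KO versus WT.

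Markers of oocytes differed among libraries, and those of testis and follicle cells were low. The summed level of 16 oocyte genes was 0.476 to 4.76 CPM in G77S, 4.37 to 13.8 CPM in KO and 1.79 to 29.2 CPM in WT, and 8 of the 16 stayed under 1 CPM in every library. Its most abundant gene, Zp2 of the egg coat, had 0 counts in each G77S library, 39 and 67 in KO, and 0, 1 and 482 in WT. In WT replicate 3 Zp2 stood at 22.3 CPM, above Mael in the same library (18.3 CPM). The summed level of 10 testis and spermatid genes was 1.97 to 2.80 CPM in G77S, 1.89 to 5.62 CPM in KO and 2.87 to 5.76 CPM in WT. Of its 3 tested genes edgeR called 0 in each comparison, with 1 at an unadjusted p under 0.05 for G77S versus WT, where limma called 1 lower and DESeq2 0. Of 9 cumulus and granulosa genes 8 had no count in any library. For the oocyte list edgeR called 0 of 7 tested genes in each comparison, with 2, 1 and 1 at an unadjusted p under 0.05 for G77S versus WT, G77S versus KO and KO versus WT, and DESeq2 and limma called 0. The part of such cells in the counts of Dazl, Ddx4 and Tex101 was not tested.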

How the data were processed

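Mouse blastocyst RNA was profiled in 8 libraries of 3 genotypes. The deposited values are RSEM gene tables, 1 per library and not pooled: expected counts (multi-mapping reads are shared out), TPM and FPKM scaled by the authors within each library, and transcript lengths, per the file headers. FPKM was not used. Tools listed in the submitters' processing notes are RSEM 1.3.1, STAR 2.6.1c, Trim Galore 0.4.5 and DESeq2 1.42.1, with mm10 (GRCm38) as build. For annotation release, strand setting and filters, nothing is given in the sources used here.

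Symbols and coordinates (1-based, GRCm38) came from GENCODE, which matched 55144 of 55471 identifiers (99.4%). Expected counts were rounded and tested with edgeR 4.0.16 (R 4.3.3): low counts were removed with filterByExpr (13953 genes kept), with TMM factors, 1 model over all 8 libraries, quasi-likelihood F test, Benjamini-Hochberg adjustment over all genes tested, calls at an adjusted p under 0.05. Standard errors were taken as log2 fold change over root F. Levels are TMM-scaled CPM or the authors' deposited TPM. Of the 9 members 8 passed the filter. Floors are 3 counts, and since amplified reads carry no molecular identifiers, floors cover counting error only; 3 counts are 0.139 to 0.298 CPM. Steps were tested on simulated data. There 2.64% of 2-fold, 39% of 4-fold and 64.8% of 8-fold changes were called for KO versus WT, so most 2-fold changes would be missed. False calls were 6.68% of all calls for G77S versus WT, 4.36% for G77S versus KO and 4.57% for KO versus WT.

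The members, gene lists and tests were chosen with earlier results of these data known. Named are all members, Isca2, and from each list up to 4 called genes, or else up to 2 abundant ones; Chpt1, Tex19.2 where not called, Zp2's counts, and leave-one-out fits of called companion genes were added after values were seen. Alternatives were RLE scaling, no filter, at least 5 CPM in 2 libraries as the filter, models of just the compared groups, the replicate block, DESeq2 1.42.0, limma 3.58.1 on log2(TPM + 1), only libraries with Y-linked RNA of at least 1 CPM, and leaving out each library. Promoter windows are from RefSeq (GRCm38.p6).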

Additional observations from a re-analysis of the deposited data

How the results depend on the processing

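Across the alternatives 255 member values kept their direction and their side of the threshold, 3 uncalled values were 0 to 2 decimals, 33 turned sign, 10 passed the threshold newly and 10 no longer passed it. The count of members called was 0 for KO versus WT under every alternative run. For G77S versus WT, 1 in the main analysis, it was 0 with RLE scaling, 3 without a filter (Tex19.1, Mael and Sycp3), 3 with DESeq2 (the same genes), 2 among the libraries with Y-linked RNA, and 0 to 1 when each library was left out. For G77S versus KO, also 1, it was 2 (Tex19.1 and Sycp3) without a filter, with only the 2 groups compared, with the replicate block, with DESeq2 and among the libraries with Y-linked RNA, and 0 to 1 when each library was left out. Calls over all genes moved as well. For G77S versus WT there were 473 in the main analysis, 467 with RLE scaling, 1336 without a filter and 1538 with DESeq2. The libraries with Y-linked RNA gave 314, and leaving out each library gave 86 to 638. For G77S versus KO there were 585 in the main analysis, 1411 without a filter and 1009 with only the 2 groups compared. The replicate block gave 600, DESeq2 1700 and the libraries with Y-linked RNA 486. The cause was not tested. On log2(TPM + 1) the median of all genes moved by 0.23 for G77S versus WT, 0.34 for G77S versus KO and -0.12 for KO versus WT, and Tex19.1 stood at 2.03 against WT before that shift is taken off.

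Signs turned only for values with no call. With the replicate block they were, for KO versus WT, Dazl 0.18, Ddx4 0.65 and Tex101 -0.19, and for Tex101 -0.18 in G77S versus WT and 0.01 in G77S versus KO. On log2(TPM + 1) they were Dazl 0.31 for G77S versus WT, and Dazl 0.49, Asz1 0.02 and Hormad1 0.35 for G77S versus KO. Among the libraries with Y-linked RNA they were Ddx4 0.66 for KO versus WT, Tex101 -2.11 for G77S versus WT, and Asz1 0.10 and Hormad1 0.15 for G77S versus KO. Leaving out each library gave, for KO versus WT, Dazl -1.34 to 1.02, Ddx4 -8.25 to 0.96 and Tex101 -7.10 to 8.73; for G77S versus WT, Dazl -0.74 to 1.0 and Tex101 -1.51 to 7.54; and for G77S versus KO, Asz1 -1.25 to 0.09, Dazl -0.66 to 1.18, Ddx4 -4.97 to 6.07, Hormad1 -0.27 to 0.16 and Tex101 -3.06 to 7.46. Values for genes at 0 in a group depend on the model's prior.

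Replicate numbers gave no pairing: same-numbered libraries' deviations correlated at -0.04 to 0.10, and 3 of 6 G77S and WT libraries correlated best with their own number. With the replicate block 411 genes were called for G77S versus WT (473 without), 600 for G77S versus KO (585) and 8 for KO versus WT (17). Where 1 library was left out of KO, the lone KO library is assumed to vary like the other groups.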
